A study of Mus musculus with 6 samples.

Results

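The genes described here are 8 transcription factor genes of mesenchymal cells and of the epithelial-mesenchymal transition, taken as the paralogue pairs Twist1 and Twist2, Prrx1 and Prrx2, Snai1 and Snai2, and Zeb1 and Zeb2. They, and the gene lists used below, were chosen by name with earlier results of these data known. For each of the 8 genes 1 array probe set carried the symbol, and all 8 of 8 were measured among 19938 genes. Expression was measured on Affymetrix Mouse Gene ST arrays, 1 for each sample, in 3 mouse osteosarcoma lines and 3 mouse osteoblast cultures. The osteosarcoma lines, OS_493H, OS_494H and OS_716H, were grown from primary bone tumours of C57Bl6 mice labelled Osx-Cre+, Rb fl/fl and p53 fl/fl, in which Cre from the Osterix (Sp7) promoter acts in the osteoblast lineage. The tumour site was the hip for OS_493H (a female aged 188) and OS_494H (a male aged 190) and the tibia for OS_716H (labelled female, aged 226), with no unit given for age. The osteoblasts were KUSA4b10 cells, labelled C57Bl6, a bone marrow stromal line kept for 21 days after confluence in medium with 50 ug/ml ascorbate, and are called cultures 1 to 3. Medium for all 6 samples was RPMI with 10% FCS, and neither ascorbate nor a differentiation time is labelled for the tumour lines. Each tumour line is 1 tumour, and the 3 cultures are 1 cell line for which the labels leave unclear if the numbering stands for independent experiments, so p-values cover only the spread between these samples. Tumour origin, genotype, growth state and differentiation time all differ between the groups and cannot be told apart.

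Twist1 and Twist2 are basic helix-loop-helix proteins that pair with E proteins on E-box DNA, and Twist proteins are known to hold back Runx2 in early osteoblasts. Prrx1 and Prrx2 are paired-related homeobox proteins of limb and craniofacial mesenchyme. Snai1 and Snai2 are zinc finger repressors, and Zeb1 and Zeb2 carry clusters of zinc fingers on each side of a homeodomain. All of the Snail and Zeb proteins bind E-boxes of the CACCTG type and repress epithelial genes such as E-cadherin (Cdh1) through corepressors. In carcinoma these factors mark the loss of epithelial character, whereas cells of bone are mesenchymal from the start.

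Values are deposited log2 expression values, so a difference of 1 is a 2-fold change, and the group difference was tested with limma across all 19938 genes, with a call at a Benjamini-Hochberg adjusted p under 0.05. Precision is limited by having 3 arrays in each group. Some arrays stood apart. Cultures 1 and 3 differed by more than 1 log2 unit at 3 genes, whereas culture 2 differed from them at 150 and 186 genes. Pairs of tumour lines differed at 401 to 652 genes. OS_716H, labelled as female, went against its label: Eif2s3y, a Y-linked gene, was 10.11 there and 9.96 in OS_494H, and Xist was 5.50 there and 12.62 in OS_493H. Each member is therefore also given below without culture 2 and without OS_716H. All 3 cultures were low for both Xist (5.57 to 5.79) and Eif2s3y (4.10 to 4.14), whereas each line was high for 1 of them. The part of this in the members' differences was not tested.

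In the osteosarcoma lines, set against the osteoblast cultures, 3 of the 8 members were called higher and 1 was called lower. Prrx2, Twist1 and Snai1 rose 2.82-, 1.97- and 1.92-fold, Zeb2 fell 1.63-fold (a call lost without any 1 of 4 arrays), and Twist2, Prrx1, Snai2 and Zeb1 did not pass. Over all genes tested, 13.2% were called higher and 11.4% lower, or 24.6% in either direction, and 35.7% had an unadjusted p under 0.05. Median centring of the arrays raised the share of higher calls to 63.5% of all calls, against 53.6% as deposited, and quantile normalisation gave 47.4%. Lines and cultures did not overlap for 5 members, the called ones and Prrx1, against 41.5% of all genes. These 5 were 4 members with higher lines and 1 with lower lines, against 20.5% and 21% of all genes. The median of all genes differed by -0.02. All 8 members lay above 7.53, the median of all deposited values, on each of the 6 arrays.

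**Figure D1:**
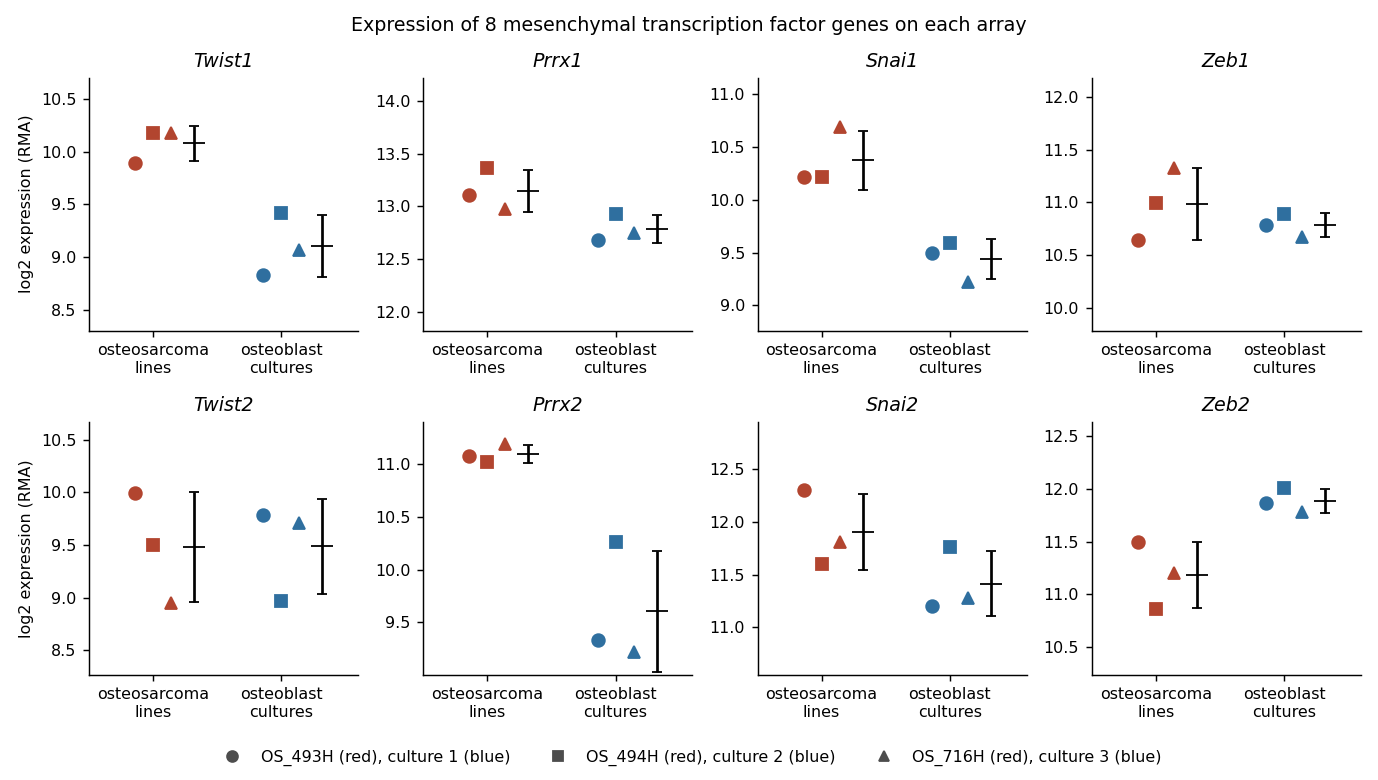
Log2 expression (vertical axis, each panel spanning the same number of log2 units) of the 8 genes in the 3 osteosarcoma lines (red, left) and the 3 osteoblast cultures (blue, right); symbols mark single arrays and pair no samples, and black bars are mean ± SD. Prrx2, Twist1 and Snai1 lie higher and Zeb2 lower in every line than in every culture. Prrx1 also lies higher in every line, by only 0.04 at the closest, and did not pass.

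The DNA just before the start of the 4 called genes is shown because the Snail and Zeb factors act through short E-boxes, and Snai1 holds such a site before its own start. RefSeq promoter windows (GRCm38.p6) matched 6 of the 8 members by symbol. Each line below gives the 250 bases before the annotated start, 5′ to 3′, with the position and strand, and for Zeb2 the first of 4 starts in the table. Capitals mark matches on either strand to the E-box CANNTG, of which CACCTG is 1 form, to the CCAAT box and to the TATA box, searched as TATAA.
Twist1, chr12:33957421-33957670, + strand: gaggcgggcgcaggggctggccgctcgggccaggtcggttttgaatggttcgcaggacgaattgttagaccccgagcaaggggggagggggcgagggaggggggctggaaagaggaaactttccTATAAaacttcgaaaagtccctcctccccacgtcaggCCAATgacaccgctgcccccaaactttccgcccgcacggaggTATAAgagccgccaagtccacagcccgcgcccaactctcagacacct
Prrx2, chr2:30845117-30845366, + strand: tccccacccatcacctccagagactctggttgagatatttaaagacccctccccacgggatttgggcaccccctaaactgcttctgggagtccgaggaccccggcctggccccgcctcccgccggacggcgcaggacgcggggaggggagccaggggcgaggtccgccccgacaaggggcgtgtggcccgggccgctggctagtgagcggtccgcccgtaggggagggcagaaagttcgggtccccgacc
Snai1, chr2:167537945-167538194, + strand: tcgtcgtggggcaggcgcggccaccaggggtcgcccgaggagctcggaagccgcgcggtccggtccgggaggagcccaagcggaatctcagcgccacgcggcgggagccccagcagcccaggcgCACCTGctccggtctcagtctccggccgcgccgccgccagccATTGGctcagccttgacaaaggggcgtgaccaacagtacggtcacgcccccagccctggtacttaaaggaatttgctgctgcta
Zeb2, chr2:45117443-45117692, - strand: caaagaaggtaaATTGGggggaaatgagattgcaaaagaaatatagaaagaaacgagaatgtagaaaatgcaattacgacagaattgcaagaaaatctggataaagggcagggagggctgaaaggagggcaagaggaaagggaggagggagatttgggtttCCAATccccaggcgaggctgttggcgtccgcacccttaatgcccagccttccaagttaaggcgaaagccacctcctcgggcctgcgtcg
The Snai1 window held 1 CACCTG, which begins 126 bases before the start, and 1 CCAAT box on the opposite strand at 84 bases. No CANNTG was found in the windows of Twist1, Prrx2 and Zeb2 shown here. Of all 32851 windows of this length, 66.2% held CANNTG and 17.2% held the CACCTG form on either strand. Twist1 held TATAA at 126 and 47 bases and CCAAT at 89 bases, and Zeb2 held CCAAT at 89 bases. Zeb2 held a further CCAAT box on the opposite strand at 238 bases. Among all windows 22.8% held TATAA and 33.8% held CCAAT on either strand, and no 2 of the marked matches overlap. These matches describe letters only, and no binding was measured.

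Twist1, which keeps mesenchymal precursors from maturing in bone and skull sutures, measured 9.89 in OS_493H, 10.18 in OS_494H and 10.17 in OS_716H, against 8.83, 9.41 and 9.07 in cultures 1, 2 and 3. The lines were close together and each lay above the highest culture, culture 2, by at least 0.48. Means were 10.08 ± 0.17 in the lines and 9.10 ± 0.30 in the cultures (SD, n = 3 each), a log2 difference of 0.98 ± 0.16 (SE, 95% interval 0.59 to 1.37, limma adjusted p = 0.00687). Without culture 2 the difference was 1.13, and without OS_716H it was 0.93.

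Twist2, also called Dermo1 and expressed in dermis and bone precursors, did not pass the test. It measured 9.99 in OS_493H, 9.50 in OS_494H and 8.95 in OS_716H, against 9.78, 8.97 and 9.71 in cultures 1, 2 and 3. The groups overlapped over nearly their whole range, with a low array in each group: OS_716H among the lines and culture 2 among the cultures. The difference was -0.01 ± 0.31 (SE, limma adjusted p = 0.99), and its 95% interval of -0.76 to 0.75 leaves room for a change in either direction. Without culture 2 the difference was -0.27, and without OS_716H it was 0.26.

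Prrx2 had the largest difference among the members. It measured 11.08 in OS_493H, 11.03 in OS_494H and 11.19 in OS_716H, against 9.34, 10.26 and 9.22 in cultures 1, 2 and 3. The lines lay within 0.16 of each other, while culture 2 stood 0.98 above the mean of the other cultures. Means were 11.10 ± 0.08 in the lines and 9.60 ± 0.57 in the cultures (SD, n = 3 each), a difference of 1.49 ± 0.27 (SE, 95% interval 0.86 to 2.13, limma adjusted p = 0.00862). Without culture 2 it was 1.82, and without OS_716H it was 1.45.

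Prrx1, a factor of limb bud mesenchyme and of skeletal stem and stromal cells, measured 13.11 in OS_493H, 13.37 in OS_494H and 12.97 in OS_716H, against 12.68, 12.93 and 12.75 in cultures 1, 2 and 3. All lines lay above all cultures, but OS_716H exceeded culture 2 by only 0.04. The difference of 0.36 ± 0.12 (SE) did not pass (limma adjusted p = 0.0825). Without OS_716H it was 0.45 and passed (adjusted p = 0.0479, in a range of 0.0273 to 0.242 over all settings), and without culture 2 it was 0.44.

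Snai1, the Snail repressor that drives epithelial-mesenchymal transition in carcinoma cells and the embryo, measured 10.21 in OS_493H, 10.21 in OS_494H and 10.70 in OS_716H, against 9.49, 9.59 and 9.22 in cultures 1, 2 and 3. Every line was at least 0.62 above every culture, and OS_716H was the highest array. Means were 10.37 ± 0.28 in the lines and 9.44 ± 0.19 in the cultures (SD, n = 3 each), a difference of 0.94 ± 0.16 (SE, 95% interval 0.55 to 1.33, limma adjusted p = 0.00787). Without OS_716H it was 0.78, and without culture 2 it was 1.02.

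Snai2, the Slug repressor of neural crest and mesenchymal cells, measured 12.30 in OS_493H, 11.60 in OS_494H and 11.81 in OS_716H, against 11.20, 11.76 and 11.28 in cultures 1, 2 and 3. OS_494H lay below culture 2, so the groups overlapped. The difference was 0.49 ± 0.22 (SE, 95% interval -0.04 to 1.02) and did not pass (limma adjusted p = 0.166). Without culture 2 it was 0.67, without OS_493H it was 0.29, and without OS_716H it was 0.54.

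Zeb1, a repressor of E-cadherin, spread more among the lines than among the cultures. It measured 10.64 in OS_493H, 10.99 in OS_494H and 11.33 in OS_716H, against 10.79, 10.89 and 10.67 in cultures 1, 2 and 3. All 3 cultures lay between the lowest and the highest line. The difference was 0.20 ± 0.17 (SE, 95% interval -0.21 to 0.62, limma adjusted p = 0.469), with 0.26 without culture 2 and 0.03 without OS_716H.

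Zeb2, also known as Sip1, a Smad-binding repressor of the same family, was the only member called lower. It measured 11.49 in OS_493H, 10.86 in OS_494H and 11.20 in OS_716H, against 11.87, 12.01 and 11.78 in cultures 1, 2 and 3. The highest line, OS_493H, lay 0.29 below the lowest culture. Means were 11.19 ± 0.32 in the lines and 11.89 ± 0.12 in the cultures (SD, n = 3 each), a difference of -0.70 ± 0.16 (SE, 95% interval -1.09 to -0.31, limma adjusted p = 0.023). The call was lost on leaving out culture 1 (difference -0.71, adjusted p = 0.0778), culture 2 (-0.64, 0.0751), culture 3 (-0.75, 0.0598) or OS_716H (-0.71, 0.0508), and the adjusted p ranged from 0.0121 to 0.0778 over all settings.

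**Figure D2:**
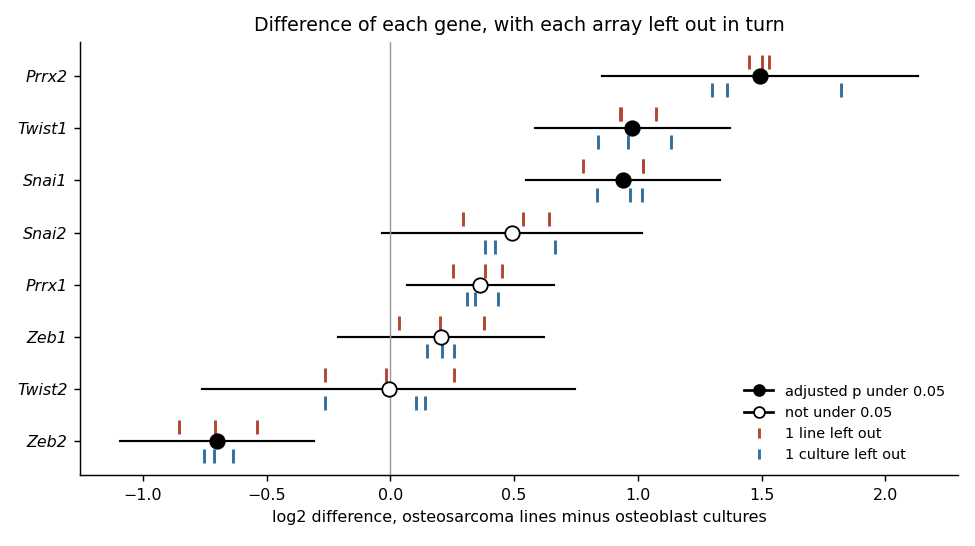
Log2 difference, osteosarcoma lines minus osteoblast cultures (horizontal axis), of each gene with its 95% interval (line); filled circles passed at adjusted p under 0.05, and ticks give the difference with 1 line (red, above) or 1 culture (blue, below) left out. With any 1 array left out, Prrx2, Twist1 and Snai1 stay above 0, and so do Prrx1, Snai2 and Zeb1, which did not pass. Zeb2 stays below 0, while Twist2 falls on both sides of 0.

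Within pairs of paralogues the log ratio of the partners was compared between groups on each array, with a two-sided exact permutation test over the 6 arrays, for which 0.1 is the smallest p that 3 against 3 can give. The ratio of Prrx2 to Prrx1 changed by 1.13 log2 units in the lines relative to the cultures, without overlap (exact p = 0.1). That of Zeb2 to Zeb1 changed by -0.91, also without overlap (exact p = 0.1). The ratio of Twist2 to Twist1 changed by -0.99 (exact p = 0.2) and that of Snai2 to Snai1 by -0.45 (exact p = 0.3), and in both the groups overlapped. Adjusted over the 4 pairs, the p-values were 0.2, 0.2, 0.267 and 0.3, so none could pass at this sample size.

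The members differed in how they varied inside a group. The SD over the 3 lines was 0.08 for Prrx2, 0.17 for Twist1 and 0.20 for Prrx1, and 0.52 for Twist2, against a median of 0.13 over all genes. Twist2 covered a 2.06-fold range among the lines, falling in the order OS_493H, OS_494H and OS_716H. Zeb1 ran in the opposite order over a 1.61-fold range, and Zeb2 was highest in OS_493H and lowest in OS_494H. Zeb1 and Zeb2 had SDs of 0.34 and 0.32 over the lines and 0.11 and 0.12 over the cultures, whereas Prrx2 had 0.08 over the lines and 0.57 over the cultures. With 3 samples a group, these SDs are descriptions and were not tested.

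Culture 2 was the highest of the 3 cultures for 7 of the 8 members and the lowest for Twist2. Among all genes it was the highest for 37.5%. It lay above the mean of cultures 1 and 3 by 0.98 for Prrx2, 0.53 for Snai2 and 0.47 for Twist1. For Snai1, Prrx1, Zeb2 and Zeb1 it lay above that mean by 0.23, 0.22, 0.19 and 0.16, and for Twist2 the difference was -0.77. Cultures 1 and 3 differed from each other by 0.07 to 0.27 at these genes, and by most at Snai1, where this gap exceeded the 0.23. For the 3 members called higher, culture 2 was the culture nearest to the lines, and for Zeb2, called lower, it was the farthest. On the same arrays, the mean level of 5 measured markers of dividing cells was 10.20 in culture 2, against 9.09 in culture 1 and 9.04 in culture 3, and Sp7 was 10.50, against 9.13 and 8.91. The part of these markers in the members' values was not tested.

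**Figure D3:**
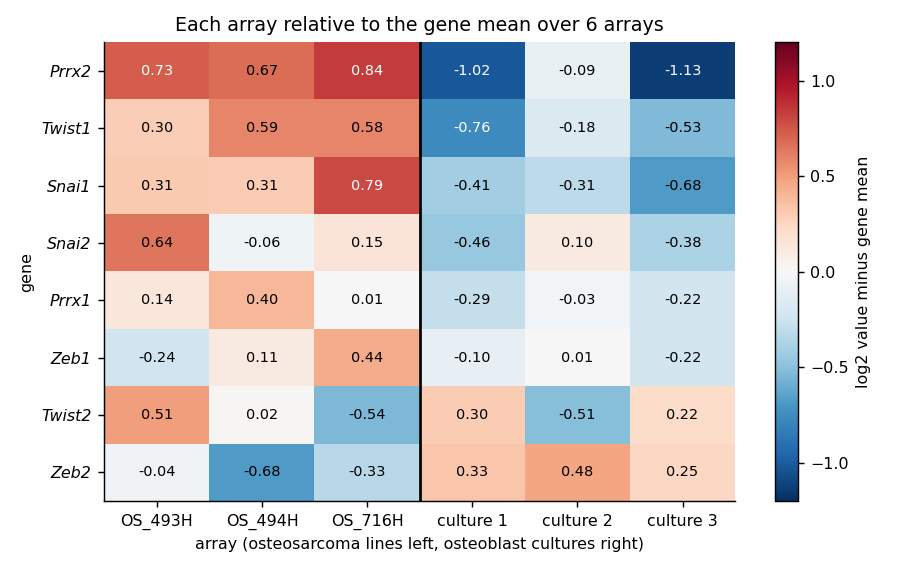
Log2 value of each array minus the gene's mean over the 6 arrays (colour and printed number), with genes as rows and arrays as columns, osteosarcoma lines left and osteoblast cultures right. Culture 2 is nearer to the lines than cultures 1 and 3 for Prrx2, Twist1 and Snai1 and farther for Zeb2, and Twist2 is low in both OS_716H and culture 2.

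Epithelial genes were taken as a general list, not limited to known targets of the Snail and Zeb repressors. Of 22 measured epithelial genes, 1 rose and 1 fell, against 13.2% and 11.4% of all genes. The median difference was 0.02, and 14 of the 22 lay below 7.53, the median of all deposited values, in both groups. Cdh1, which encodes E-cadherin, was 6.96 ± 0.09 in the lines and 7.04 ± 0.04 in the cultures (SD, n = 3 each), a difference of -0.08 (limma adjusted p = 0.512). Epcam, an epithelial adhesion protein, was 6.30 ± 0.08 in the lines and 6.25 ± 0.06 in the cultures. The gene that rose was Cdh3, which encodes P-cadherin. It was 9.81, 10.38 and 10.39 in OS_493H, OS_494H and OS_716H, against 7.68, 7.87 and 7.82 in cultures 1, 2 and 3. Every line was far above every culture, with a difference of 2.40 ± 0.17 (SE, limma adjusted p = 5.81e-04). The desmosome gene Dsp fell by 0.28 (adjusted p = 0.0425), a call that only the fit without OS_716H kept among the fits with 1 array fewer (adjusted p 0.0705 to 0.152 in the others). Dsp also lost its call with median centring (-0.22, adjusted p = 0.082) and over all probe sets by identifier (0.0519), and was not among the brighter genes. Krt19, a simple-epithelium keratin chosen after its values were seen, was 7.89, 8.20 and 6.87 in the 3 lines against 6.59, 6.75 and 6.71 in the cultures. It did not pass (adjusted p = 0.0736), but did without OS_716H (difference 1.36, adjusted p = 0.00249), when 2 epithelial genes were called higher, and with array weights (1.08, 0.011). Over all settings the adjusted p of Krt19 was 0.00249 to 0.197.

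Mesenchymal effector genes leaned upward. Of 19 measured, 8 rose and 2 fell, against 13.2% and 11.4% of all genes. The median difference was 0.46, against -0.02 over all genes. Cdh11, the cadherin of osteoblasts and mesenchyme, was 12.76 ± 0.39 in the lines and 10.62 ± 0.07 in the cultures (SD, n = 3 each), a difference of 2.14 ± 0.19 (SE, limma adjusted p = 9.65e-04). The actin-binding protein Tagln rose by 2.09 (adjusted p = 0.0205), the calcium-binding protein S100a4 by 1.39 (0.00356) and the fibronectin receptor subunit Itga5 by 1.24 (0.025). The remaining genes that passed, named here after their values were seen, were Cdh2 (N-cadherin, 1.04), the collagen crosslinking enzyme Lox (1.24), Col3a1 (1.18) and the receptor kinase Axl (0.46) among those that rose, and the protease Mmp14 (-0.67) and fibronectin, Fn1 (-0.28), which fell. Vim, which encodes vimentin and was also named after its values were seen, was 14.11 ± 0.03 in the lines and 13.98 ± 0.07 in the cultures and did not pass (difference 0.13, adjusted p = 0.258). Only 4 of these genes rose without culture 1 or without culture 3, when Tagln, Itga5, Cdh2 and Col3a1 lost their calls (adjusted p 0.056 to 0.146). Itga5 was also lost without culture 2 or OS_493H (0.0617 and 0.0677), Tagln without OS_716H (0.054), and Col3a1 without OS_493H or OS_716H (0.124 and 0.103). Fn1 kept its call without OS_716H and lost it without each other array (0.0508 to 0.0958) and with median centring (0.0702). Col3a1 was lost too with quantile normalisation (0.0593), robust moderation (0.0506) and all probe sets by identifier (0.0517). Some calls were gained, in genes named after their values were seen. Acta2 (0.96, adjusted p = 0.00714) and Col5a2 (0.88, 0.00939) were called higher without culture 2, and both also with array weights. Mmp9 was called lower without OS_493H (-0.71, 0.00772) and Pdgfrb without OS_716H (-0.36, 0.0466).

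Partners and corepressors of the 8 factors were measured next. Of 18 such genes, 8 rose and 1 fell, against 13.2% and 11.4% of all genes, with a median difference of 0.39. With median centring 11 rose, adding Rcor1, Hdac2 and Sin3a, which were named after their values were seen. The largest changes were in Id genes, whose products bind E proteins and keep them from pairing with factors such as Twist. Id2 was 12.22, 11.65 and 11.74 in OS_493H, OS_494H and OS_716H, against 8.89, 9.08 and 8.55 in cultures 1, 2 and 3, with no overlap and a difference of 3.03 ± 0.19 (SE, limma adjusted p = 4.85e-04). Id3 rose by 1.70 ± 0.21 (SE, adjusted p = 0.00255). Id1, with a difference of 0.64 (adjusted p = 0.0834), did not pass except without OS_716H (0.81, adjusted p = 0.0479) and with array weights, in a range of 0.019 to 0.228. Of the E proteins, Tcf3 rose by 0.42 (adjusted p = 0.018), while Tcf4 and Tcf12, named after their values were seen, differed by -0.11 and 0.02 and did not pass.

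Among corepressors, the histone deacetylase Hdac1 rose by 1.46 ± 0.18 (SE, limma adjusted p = 0.00228) and the LIM protein Ajuba, a Snail cofactor, by 0.97 ± 0.09 (SE, adjusted p = 0.00115). The Polycomb methyltransferase Ezh2 rose by 0.91 and the remodelling ATPase Smarca4 by 0.75. The CtBP corepressors, which Zeb proteins recruit, moved apart. Ctbp1 rose by 0.28 (adjusted p = 0.0319) and Ctbp2 fell by 0.41 (adjusted p = 0.0189). Both calls were fragile: Ctbp1 was lost on leaving out any 1 array except OS_493H (adjusted p 0.0537 to 0.126) and with quantile normalisation (0.0709), and Ctbp2 without culture 2, culture 3 or OS_493H (0.0621, 0.0802 and 0.0597). Tcf3 was lost without culture 1, culture 3 or OS_493H (0.0775, 0.0768 and 0.0563). Tcf3, Ezh2, Smarca4, Id1 and the CtBP genes were named after their values were seen.

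Snail and Twist proteins are short-lived, and an array does not measure protein. Of 10 measured genes for kinases and ubiquitin ligases that act on their stability, 1 rose and none fell by limma, while 3 were higher and 1 lower at an unadjusted p under 0.05. Over all genes, 13.2% were called higher and 11.4% lower, and 35.7% had an unadjusted p under 0.05. Prkd1, a kinase known to phosphorylate Snail, was 9.31 ± 0.31 in the lines and 7.46 ± 0.07 in the cultures (SD, n = 3 each). All lines lay above all cultures, by a mean of 1.85 ± 0.16 (SE, limma adjusted p = 8.54e-04). Fbxo45, a ubiquitin ligase subunit, had the next largest difference, 0.37, and did not pass (adjusted p = 0.127). Without OS_716H the ubiquitin ligase subunit gene Fbxw7, named after its values were seen, was called higher too (0.35, adjusted p = 0.0383).

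Genes for signals that induce the 8 factors in other cells went both ways. Of 17 measured, 3 rose and 5 fell, against 13.2% and 11.4% of all genes, with a median difference of 0.01. Tgfb1, a ligand that induces Snail and Zeb genes in epithelial cells, was 9.61, 9.92 and 9.90 in OS_493H, OS_494H and OS_716H, against 11.55, 11.90 and 11.58 in cultures 1, 2 and 3. The lines were below all cultures, with a difference of -1.87 ± 0.13 (SE, limma adjusted p = 5.88e-04). The Notch ligand Jag1 fell by 1.82 (adjusted p = 0.00517) and the FGF receptor Fgfr1 by 0.97 (0.001). The receptor genes Tgfbr1 and Notch1, named after their values were seen, had differences of -0.94 and -0.73 and were called lower. Met, the receptor for hepatocyte growth factor, rose by 1.46 ± 0.29 (SE, adjusted p = 0.0136). Tgfbr2 and Hif1a, also named after their values were seen, rose by 0.35 and 0.51. Without culture 1 or culture 3, Met alone was called higher: Tgfbr2 had adjusted p-values of 0.0563 and 0.0619 there, and Hif1a 0.0984 and 0.112. Hif1a also lost its call without culture 2, OS_493H or OS_716H (0.0852, 0.0918 and 0.0552).

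The microRNAs of the miR-200 family and miR-205 repress Zeb1 and Zeb2 and share a short list of seeds, so their mature sequences are shown. Each is given 5′ to 3′ from RefSeq (GRCm38.p6), with the seed, bases 2 to 8, in capitals.
mmu-miR-200a-3p: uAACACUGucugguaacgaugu
mmu-miR-141-3p: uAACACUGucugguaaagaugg
mmu-miR-200b-3p: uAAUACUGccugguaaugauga
mmu-miR-200c-3p: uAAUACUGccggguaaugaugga
mmu-miR-205-5p: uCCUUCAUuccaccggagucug
The seed AACACUG is shared by miR-200a and miR-141, and AAUACUG by miR-200b and miR-200c. Of the 5 genes measured, none was called by limma, and 0 had an unadjusted p under 0.05, against 24.6% and 35.7% of all genes. The lowest adjusted p was that of Mir141, with a level of 5.04 ± 0.07 in the lines and 5.18 ± 0.10 in the cultures (SD, n = 3 each, adjusted p = 0.281). Mir200b was 5.59 ± 0.07 in the lines and 5.48 ± 0.14 in the cultures (adjusted p = 0.483). Of these genes 4 lay below the median of all values in both groups. The probe sets read the transcript of the microRNA gene and not the mature form.

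Relatives of the 8 factors did not pass in either direction. Of 15 measured genes of the Snail, Scratch, Twist-like and paired-type homeobox families, none was called by limma, 0 had an unadjusted p under 0.05, and lines and cultures overlapped for every gene. Over all genes 24.6% were called, 35.7% had an unadjusted p under 0.05, and 41.5% did not overlap. However, 8 of the 15 relatives lay below the median of all values in both groups. The largest differences were those of Scx (scleraxis, a tendon factor, -0.21, adjusted p = 0.698) and the homeobox gene Otp (-0.17, 0.281). The third Snail gene, Snai3, differed by 0.01 and was named after its value was seen. Of 19 other mesenchymal transcription factors measured, 3 were called higher and 3 lower, near the 13.2% and 11.4% of all genes. Their median difference was 0.23. Meox2, a homeobox factor of somite and limb muscle mesenchyme, measured 10.76 in OS_493H, 8.01 in OS_494H and 10.67 in OS_716H, against 6.10, 6.14 and 6.13 in cultures 1, 2 and 3. Every line was above every culture, though OS_494H lay far below the other lines, and the difference was 3.69 ± 0.70 (SE, limma adjusted p = 0.011). Klf4 fell by 1.52 (adjusted p = 0.0344), the forkhead gene Foxc1 by 1.00 (0.0331) and Foxs1 by 0.68 (0.00358). Foxf1 and Tbx15, named after their values were seen, rose by 0.53 and 0.55. With the mean of probe sets Foxf1 rose by 0.97 (limma adjusted p = 0.00237). Without culture 1 or culture 3, Meox2 alone was called higher and Foxs1 alone was called lower. The calls lost there had adjusted p-values of 0.061 to 0.121. Klf4 was also lost without culture 2, OS_494H or OS_716H (0.0988, 0.0712 and 0.0527), Foxc1 without OS_493H or OS_494H (0.0992 and 0.0705), and Tbx15 without culture 2, OS_494H or OS_716H (0.0702, 0.0625 and 0.0852) and with quantile normalisation (0.051).

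**Figure D4:**
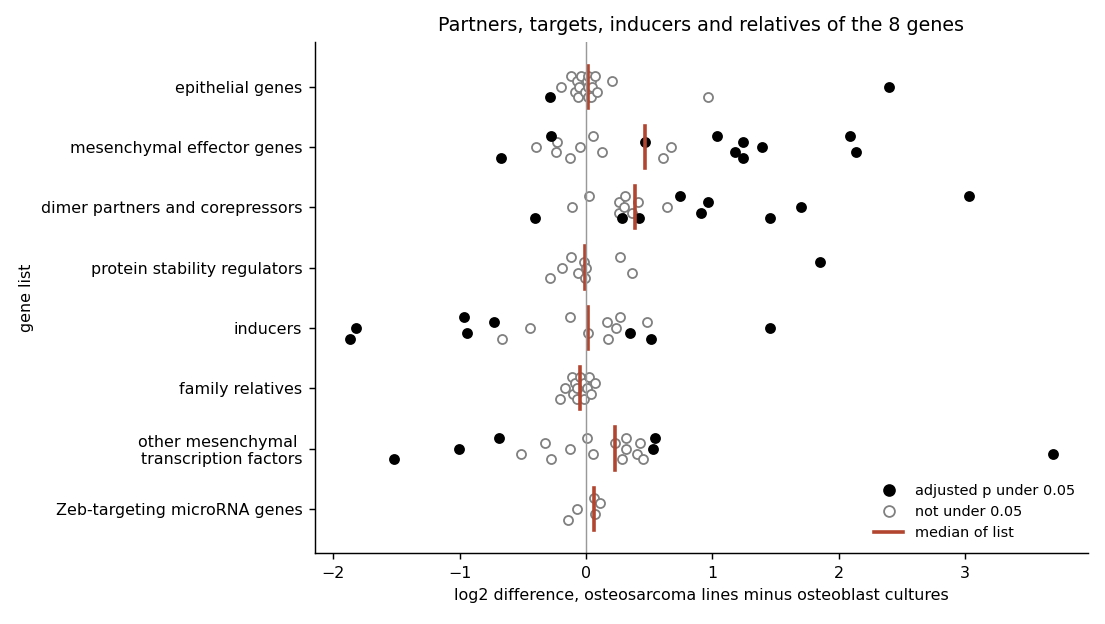
Log2 difference, osteosarcoma lines minus osteoblast cultures (horizontal axis), of the measured genes of 8 lists around the transcription factors (rows, points spread vertically for legibility); filled points passed at adjusted p under 0.05 and red bars are list medians. Medians are 0.46 for mesenchymal effectors and 0.39 for partners and corepressors, and the epithelial genes and family relatives lie close to 0 apart from Cdh3 and Krt19.

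For the 4 members with the largest SD over the 6 arrays, the genes most like them were found by the root mean square difference of values centred on each gene's own mean, over the 6 arrays. Predicted and clone-named genes, olfactory and vomeronasal receptor genes, and microRNA and small nucleolar RNA genes were left out of the ranking. Nearest to Prrx2 were Platr25 (0.10), Tpm2 (0.13) and the fatty acid-binding protein gene Fabp7 (0.14). Tpm2, which encodes a tropomyosin, was 10.73, 10.86 and 11.11 in OS_493H, OS_494H and OS_716H, against 9.01, 9.81 and 9.05 in cultures 1, 2 and 3. The clathrin adaptor gene Ap1s2 (0.07), Skida1 (0.08) and the actin turnover gene Wdr1 (0.10) were nearest to Twist1. Tcfl5 (0.09), the calmodulin-dependent kinase gene Camk2g (0.10) and the methionine sulfoxide reductase gene Msrb1 (0.10) were nearest to Snai1. For Zeb2 they were the DNA polymerase delta subunit Pold4 (0.06), B3gnt9 (0.07) and the alanine aminotransferase gene Gpt2 (0.07), all with lower means in the lines.

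Cell type markers were read on the same arrays, where 13.2% of all genes were called higher and 11.4% lower. In the lines 6 of 7 measured adipocyte markers were called lower, with a mean level of 7.45 to 7.77 on the arrays of the lines and 10.39 to 10.96 on those of the cultures. Adipoq (adiponectin) was 5.93 ± 0.18 in the lines and 11.88 ± 0.48 in the cultures (SD, n = 3 each), so the cultures held adipocyte transcripts as well as those of osteoblasts. Of 6 measured osteoblast markers 3 were called lower, with a mean level of 8.67 to 9.36 in the lines and 11.59 to 12.35 in the cultures, and Sp7 was 8.31 ± 0.71 in the lines and 9.51 ± 0.86 in the cultures (limma adjusted p = 0.141). Runx2 was not analysed here. All 5 measured markers of dividing cells were called higher, with a mean level of 11.52 to 11.98 in the lines and 9.04 to 10.20 in the cultures, and Mki67 was 11.68 ± 0.29 in the lines and 9.45 ± 0.77 in the cultures. Of 4 smooth muscle markers 2 were called higher. The mean level of the 4 was 10.91 to 11.46 in the lines and 8.91 to 9.66 in the cultures. Those called were Cnn1 (difference 4.81, limma adjusted p = 0.00106) and Tagln (2.09). Acta2 (0.67, adjusted p = 0.105) and Myh11 (0.06, 0.672) did not pass. Cnn1, Acta2 and Myh11 were named after their values were seen. Acta2 and Tagln stand both there and among the mesenchymal effectors. None of 6 endothelial, 6 leukocyte and 6 epithelial markers was called by limma, and 0, 1 and 1 of them had an unadjusted p under 0.05. Their mean levels on single arrays were 6.44 to 6.88, 6.56 to 6.73 and 6.90 to 7.09 in the lines, against 6.39 to 6.43, 6.62 to 6.69 and 6.79 to 6.87 in the cultures. The leukocyte gene Ptprc was 6.17 in the lines and 6.27 in the cultures, and the endothelial gene Pecam1 was 6.58 in the lines and 6.59 in the cultures. Another endothelial gene, the angiopoietin receptor gene Tek, named after its values were seen, measured 9.05 in OS_493H, 6.30 in OS_494H and 7.52 in OS_716H, against 6.40, 6.34 and 6.40 in cultures 1, 2 and 3. It was high in OS_493H and did not pass (difference 1.24, adjusted p = 0.21). RMA values have no true 0, so absence could not be read from them. The part of cell make-up and growth state in the members' differences was not tested, and in bulk RNA fewer cells of a type and less RNA per cell cannot be told apart.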

How the data were processed

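For each of 35556 probe sets the authors deposited 1 log2 value from every array. The submitters' processing notes name RMA and the mouse build mm9. No software version is stated in these notes. RMA subtracts background, gives all arrays 1 probe distribution and shrinks large differences. Array medians ran from 7.45 to 7.58, and no 2 arrays were identical. The platform annotation gave 1 symbol for 21789 probe sets. Of several probe sets for a gene the one with the highest mean over 6 arrays was used, which left 19938 genes, and each member had 1. The group difference was fitted with lmFit and eBayes of limma 3.58.1 in R 4.3.3, two-sided, without further normalisation or filter, with Benjamini-Hochberg adjustment over all genes. Scan dates and batches were not analysed here. In simulated data with these arrays' means and SDs, 100 of 19938 genes were changed 2-fold and 100 were changed 4-fold. The changed genes were picked only from the brighter ones. Of them 75% and 94% were recovered, and 12 of 181 calls were false. In the measured data 24.6% of genes were called, so the same adjusted threshold falls at another unadjusted p. The simulated rates therefore do not give the recovery or error rate of the calls reported here.

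The members and lists were chosen with earlier results of these data known. Named genes are the members and, from each list, up to 4 called genes with the largest difference (or the 2 largest differences where fewer than 2 passed), 3 genes nearest in pattern to each of 4 members, and 8 cell type markers. Xist and Eif2s3y serve to check the labels, and other genes are marked in the text as named after their values were seen. Alternatives were quantile normalisation, median centring, brighter genes only, an intensity trend, robust moderation, array weights, the mean of probe sets, all probe sets by identifier, a 2-fold minimum, a threshold of 0.01 on adjusted p, and each array left out in turn.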

Additional observations from a re-analysis of the deposited data

How the results depend on the processing

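Over 16 alternatives to the reported settings, Prrx2 kept its call in all, with differences of 1.30 to 1.82. Twist1 (0.84 to 1.13) and Snai1 (0.78 to 1.02) kept theirs in all but the 2-fold minimum, which their differences of 0.98 and 0.94 missed. Zeb2 missed it too and, at -0.70, also missed adjusted p under 0.01. With 1 array left out its difference was -0.86 to -0.54, with the call lost in 4 of 6 cases, where fewer samples are fitted. Prrx1 passed with median centring (0.43) and array weights (0.39), and with 1 array left out its difference was 0.25 to 0.45. Snai2 passed with array weights (0.74). Twist2 changed sign with median centring (0.0570) and array weights (0.0349), and with 1 array left out its difference ran from -0.27 to 0.26. Scx changed sign without OS_493H (0.11), and its difference with 1 array left out ran from -0.50 to 0.11. Members called higher numbered 5 with array weights, 4 with median centring, 1 at the 2-fold minimum and 3 to 4 with 1 array left out. Members called lower numbered 0 at adjusted p under 0.01 and at the 2-fold minimum, and 0 to 1 with 1 array left out. Genes called higher and lower over the whole table numbered 1394 and 1072 at adjusted p under 0.01, 811 and 561 at the 2-fold minimum, and 1533 to 2796 and 1211 to 2314 with 1 array left out. Tested by identifier, 3566 probe sets were called higher and 4150 lower, so that lower calls outnumbered higher ones, as they also did with quantile normalisation (2419 and 2682). Among named list genes, normalisation or moderation ended the calls of Col3a1, Ctbp1, Tbx15, Dsp and Fn1. Array weights ran from 0.48 to 2.40, and apart from the thresholds' own construction the cause of these shifts was not tested. No paired analysis was possible, because the lines come from separate tumours and the cultures from a different cell line. RMA values carry no detection call, so low levels are bounds of unknown depth.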
